A study of Homo sapiens with 6 samples.

Results

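Long intergenic noncoding RNAs (lincRNAs) are transcripts from between the coding genes that are spliced and polyadenylated like messenger RNAs, but have no long open reading frame. Most are present at low levels and many are restricted to a few cell types. Some act on the chromatin near their own gene, some act elsewhere in the nucleus, and others bind proteins or microRNAs in the cytoplasm. LNMAT1, the RNA silenced in the cells examined here, stands in the deposited table under the symbol LINC01296 and is 1 of the genes described below.

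The genes were chosen by name and by level. Of 981 rows whose symbol is LINC followed by digits, 121 had a highest value of at least 1 FPKM over 6 libraries and are called members. The other LINC rows comprised 488 with values above 0 and under 1 FPKM, and 372 listed at 0 in every library. Since the members were selected on these FPKM values, their levels are given as a description. LINC00654 and LINC00472 lay just inside the limit, with highest values of 1.01 FPKM each, and LINC01446 and LINC00471 just outside it, with 0.988 and 0.952 FPKM. The members have 120 different symbols, because LINC01481 belongs to 2 rows. In the whole series, 15104 of 50867 features with values reached the same limit.

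RNA came from UM-UC-3 and 5637, established human lines of bladder carcinoma, each infected with lentivirus for a lasting control hairpin, named sh-NC, or for a hairpin against LNMAT1, of which there were 2 (sh-LNMAT1#1, sh-LNMAT1#2). Cells of every group had been selected with puromycin, and the growth medium differed with the line. Every construct had 1 library a line, so no difference between 2 libraries can be held against replicates. Nothing in the labels says that the libraries of a line were separate cultures. The unit, FPKM, is the number of fragments per kilobase of a gene, scaled to the depth of a library. In single-exon genes the values were whole multiples of 1 fragment, within 0.05 fragments, in 99.96% to 100% of values by library. From these the depth came to 24711000 fragments for UM-UC-3 sh-NC, 22279000 for UM-UC-3 sh-LNMAT1#1 and 22948000 for UM-UC-3 sh-LNMAT1#2. The library labelled 5637 sh-NC held 22439000, 5637 sh-LNMAT1#1 held 20804000 and 5637 sh-LNMAT1#2 held 19375000. At the median exon length of the members, 2451.5 bases, 1 FPKM stands for 47.5 to 60.6 fragments. Differences are given as log2(FPKM + 0.5), a scale that understates the change of low genes.

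The label of 1 library did not match the levels of most members. On the log2 scale, the library labelled 5637 sh-NC had a median absolute difference of 0.19 from UM-UC-3 sh-LNMAT1#1 over the 121 members, and 2 members (1.65%) lay at least 2-fold apart. Over all features the median was 0.15, and 1.34% lay 2-fold apart. Over the members the median was 0.42 from UM-UC-3 sh-NC and 0.42 from UM-UC-3 sh-LNMAT1#2. It was 1.23 from 5637 sh-LNMAT1#1 and 1.27 from 5637 sh-LNMAT1#2, with 74 members (61.2%) and 72 (59.5%) at least 2-fold apart. Over all features these medians were 0.76 and 0.73, with 38.3% and 37.0% at least 2-fold apart, so the likeness to UM-UC-3 runs over the whole library. The 5637 sh-LNMAT1 libraries differed from each other by a median of 0.20. UM-UC-3 sh-LNMAT1#1 was the nearest library for 62 members, 5637 sh-LNMAT1#1 for 6 and 5637 sh-LNMAT1#2 for 10. In this library 103 of the 121 members, 85.1%, were nearer to the mean of the UM-UC-3 hairpin libraries than to that of 5637, and so were 83.1% of all features. Of the 70 members that differed between the lines in the hairpin libraries, 70 were nearer to UM-UC-3, as were 97.7% of all features that differed. The 2 members at least 2-fold from UM-UC-3 sh-LNMAT1#1 were LINC00601 and LINC00963, lower by log2 differences of -1.24 and -1.12. The silenced gene also departed from that likeness, by less than 2-fold. On the log2 scale LINC01296 in this library differed by -0.26 from UM-UC-3 sh-NC and by 0.87 from UM-UC-3 sh-LNMAT1#1. Counts of members in 5637 past 2-fold against this library, and the changes of the members named there, are also given against UM-UC-3 sh-NC.

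Markers of cell type showed the same division. Of 11 epithelial markers, 9 reached 1 FPKM, and all 9 were higher in the 5637 sh-LNMAT1 libraries than in the UM-UC-3 sh-LNMAT1 libraries by limma. The summed level of the 11 was 24.9, 21.4 and 30.9 FPKM in UM-UC-3 with sh-NC, then sh-LNMAT1#1, then sh-LNMAT1#2. The library labelled 5637 sh-NC had 26.9 FPKM, 5637 sh-LNMAT1#1 had 741 FPKM and 5637 sh-LNMAT1#2 had 980 FPKM. In the 5637 hairpin libraries KRT19, a keratin of simple epithelia, was the most abundant, at 300 and 409 FPKM. Of 6 mesenchymal markers, 4 were lower and 1, FN1, was higher in the 5637 sh-LNMAT1 libraries, and their sums were 399, 183, 228, 164, 122 and 119 FPKM in the same order. Without FN1, which was 110 and 102 FPKM in the 5637 hairpin libraries, the sums were 398, 180.3, 226, 163, 12.3 and 16.2 FPKM. VIM, an intermediate filament protein, was the most abundant of them in the UM-UC-3 libraries, at 332, 116 and 155 FPKM. Of the defining markers of other cell types, PTPRC of leukocytes was listed at 0 in every library but 5637 sh-LNMAT1#2, at 0.0108 FPKM, and LYZ was listed at 0 in all 6. Of 5 leukocyte markers 1 reached 1 FPKM, CD68, a lysosomal protein, at 15.4, 29.2, 12.97, 31.0, 0.749 and 0.826 FPKM, called lower in 5637 by limma (log2 difference -3.96). CD14 and CSF1R, both under 1 FPKM, went the other way. In the 5637 hairpin libraries CD14 was 0.661 and 0.388 FPKM, and CSF1R was 0.260 and 0.209 FPKM. Elsewhere they were at most 0.151 and 0.0606 FPKM. Of 5 fibroblast markers 1 reached 1 FPKM, COL1A1, at 0.356, 0.0899, 0.295, 0.0515, 7.92 and 6.37 FPKM, called higher (3.47), and of 3 endothelial markers 0 did. PDGFRA of fibroblasts, under 1 FPKM, went the other way, at 0.415, 0.637, 0.316, 0.533, 0.0205 and 0.0441 FPKM. DCN of fibroblasts was at most 0.0262 FPKM. What the difference in cell type contributes to the levels of the members was not tested.

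The name of the class did not hold for every member. GENCODE release 29 holds 120 of the 121 identifiers, 99 of them at the identical position on GRCh38. It calls 88 of the members lincRNA, 10 processed transcripts, 8 antisense RNAs and 6 protein-coding genes, LINC00383 is the 1 not found, and the others are pseudogenes that are transcribed or RNAs that share a promoter with, or overlap, another gene. A coding gene overlapped 18 members, on the same strand in 9 and on the other strand in 11. Overlap was judged by the ends of the genes, not by their exons. The counting is not stated to use strand, so where exons overlap, reads from a member and from the other gene may not be told apart. For 23 members the current name differs, such as NORAD for LINC00657, CYTOR for LINC00152, PICSAR for LINC00162, PURPL for LINC01021, LNCAROD for LINC01468 and DUXAP10 for LINC01296. Among them LINC01260 now has only an identifier and no symbol.

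The members made up a small part of the measured RNA. Their summed FPKM was 0.246%, 0.278% and 0.292% of the sum over all features in UM-UC-3 with sh-NC, then sh-LNMAT1#1, then sh-LNMAT1#2. The library labelled 5637 sh-NC had 0.278%, 5637 sh-LNMAT1#1 had 0.182% and 5637 sh-LNMAT1#2 had 0.166%. The number of members at 1 FPKM or more was 81, 83 and 87 for the UM-UC-3 libraries, 79 for the library labelled 5637 sh-NC and 57 for each 5637 sh-LNMAT1 library. Of the 121, 32 reached 1 FPKM in every library and 23 in a single one. The highest value was under 2 FPKM in 39 members and at least 5 FPKM in 38.

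LINC00657 had the highest mean level. Known as NORAD, it is an abundant cytoplasmic RNA that binds PUMILIO proteins and serves genome stability. It measured 48.8, 47.5 and 35.0 FPKM in UM-UC-3 with sh-NC, then sh-LNMAT1#1, then sh-LNMAT1#2, then 52.0 FPKM for the library labelled 5637 sh-NC, and 132 and 105 FPKM in 5637 sh-LNMAT1#1 and #2. It was higher in both 5637 hairpin libraries than in any other library. LINC00460, an RNA studied in many carcinomas, was next at 46.5, 52.0 and 68.9 FPKM in UM-UC-3, then 63.1 FPKM for the library labelled 5637 sh-NC, and 3.02 and 5.84 FPKM in the 5637 hairpin libraries. LINC00162, named PICSAR after squamous cell carcinoma of the skin, measured 42.7, 32.8, 51.1, 40.1, 13.6 and 12.2 FPKM in the same order. LINC00493, LINC00707 and LINC00941 completed the highest 6 by mean level. LINC00941 measured 24.9, 20.5, 28.3, 18.0, 1.90 and 1.88 FPKM. All of these apart from LINC00657 were lower in both 5637 hairpin libraries than in every other library.

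**Figure D1:**
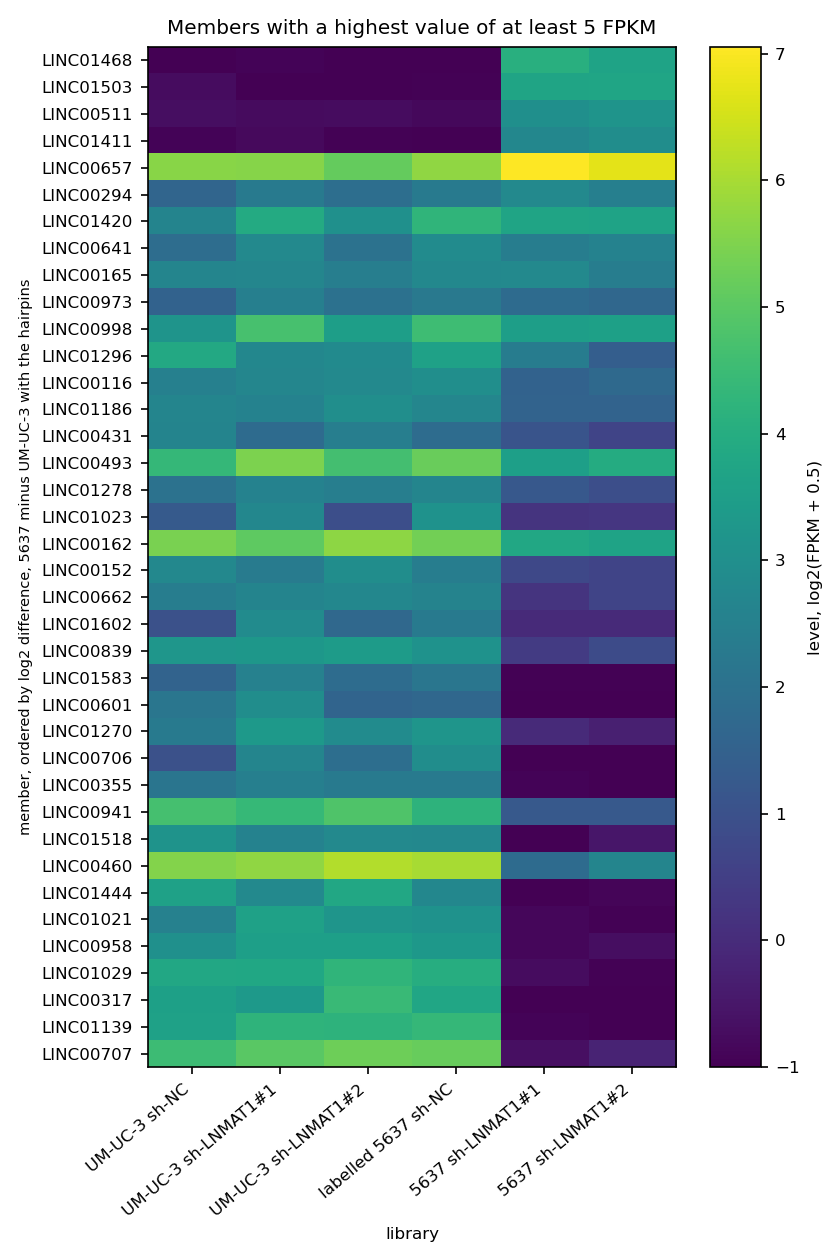
The 38 members with a highest value of at least 5 FPKM (rows) in the 6 libraries (columns), coloured by log2(FPKM + 0.5) and ordered by the difference between the lines in the hairpin libraries. The library labelled 5637 sh-NC carries the colours of the UM-UC-3 libraries. LINC01468, LINC01503, LINC00511 and LINC01411 at the top are dark in it and light in the 5637 hairpin libraries.

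LINC01296, the silenced gene, lies on chromosome 14 of GRCh38 from 19284653 to 19337730 on the minus strand, where GENCODE places the transcribed processed pseudogene DUXAP10. It has 11 annotated transcripts with a combined exon length of 12311 bases, and the nearest coding gene is POTEG, 64756 bases away. UM-UC-3 held LINC01296 at 14.2 FPKM under sh-NC, at 6.20 FPKM under sh-LNMAT1#1 and at 6.70 FPKM under sh-LNMAT1#2. The library labelled 5637 sh-NC held 11.7 FPKM of it, 5637 sh-LNMAT1#1 held 4.70 FPKM and 5637 sh-LNMAT1#2 held 2.14 FPKM. Both sh-NC libraries were above all hairpin libraries. The lowest of these values, that of 5637 sh-LNMAT1#2, rests on 17.1 to 511 fragments, from the length of the shortest transcript to that of all exons together. The copies DUXAP9 and DUXAP8 share sequence with it, and how reads were divided between the copies is not stated.

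The site of sh-LNMAT1#2 is shown because it names the member that this hairpin matches in full. Partial matches were not searched. The 19 bases of its sense strand, read from the study's oligonucleotide list, occur at base 744 of the longest LINC01296 transcript that holds them, which has 6120 bases. In the GENCODE transcript the site, in capitals, stands between 30 bases on either side.
LINC01296 site of sh-LNMAT1#2: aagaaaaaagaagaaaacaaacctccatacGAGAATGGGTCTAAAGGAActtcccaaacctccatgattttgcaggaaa
Of 121 members, 1 was found to hold the site, LINC01296, with 6 transcripts. The other matches were 5 transcripts of DUXAP9 and 4 of DUXAP8, which are not members. LINC00383 has no GENCODE transcript to search. The DUXAP9 row measured 0.836, 0.397 and 0.421 FPKM in UM-UC-3 with sh-NC, then sh-LNMAT1#1, then sh-LNMAT1#2. For DUXAP9 the library labelled 5637 sh-NC had 0.570 FPKM, and 5637 with the hairpins 0.402 and 0.169 FPKM. DUXAP8 has 2 rows. The row that holds the site (ENSG00000206195) measured 1.34, 1.70, 0.698, 2.48, 0.184 and 0.0800 FPKM in the same order, so in UM-UC-3 it was lowest under sh-LNMAT1#2. The row without the site (ENSG00000271672) measured 0.260, 3.32, 1.26, 6.38, 0.155 and 0.166 FPKM, and in UM-UC-3 it was lowest under sh-NC. The sequence of sh-LNMAT1#1 was not searched here.

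Pooled over both lines with the cell line as a covariate, the log2 change of LINC01296 with the hairpins was -1.40 (SE 0.35), with an adjusted p of 0.581 from limma, lower in 4 of 4 comparisons. No feature passed an adjusted p of 0.05, so 0 of 121 members were called against a background of 0%. With no filter on level, 0.303% of 50867 features passed and 0 members. At an unadjusted p under 0.05 from limma there were 6 members, 4.96% of them, against 6.24% of all features. These were LINC01296, LINC01518, LINC01444, LINC01468, LINC01106 and LINC00638, named after their values were seen. In UM-UC-3, LINC01468 changed by 0.09 and 0 with sh-LNMAT1#1 and #2, and LINC01444 by -0.84 and 0.22. Against the library labelled 5637 sh-NC they changed by 5.07 and 4.69, and by -3.71 and -3.61. The others went 1 way in all comparisons. Over the alternatives the log2 change of LINC01296 ranged from -1.72 to -1.08 and its adjusted p from limma from 0.0376 to 0.979. Without UM-UC-3 sh-NC, which leaves the library labelled 5637 sh-NC as the only control, the log2 change was -1.72. A lone control has no spread of its own, so p-values of such a fit rest on the spread among the hairpin libraries. Without the library labelled 5637 sh-NC the log2 change was -1.08, with an adjusted p from limma of 0.858 and 0 members called, and at an unadjusted p under 0.05 from limma 9 members were higher (7.44% against 3.77% of all features) and 0 lower (against 1.97%).

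The genes whose pattern over the 6 libraries was most like that of LINC01296, by Pearson r of log2(FPKM + 0.5) over all features at 1 FPKM or more, were not members. They were CCDC109B (r = 0.997), a subunit of the mitochondrial calcium channel now named MCUB, WARS2 (r = 0.991), the mitochondrial tryptophan tRNA synthetase, and RNU4-25P (r = 0.990), a pseudogene of a small nuclear RNA. CCDC109B measured 7.80, 5.49 and 5.34 FPKM in UM-UC-3 with sh-NC, then sh-LNMAT1#1, then sh-LNMAT1#2, then 7.16, 4.52 and 3.30 FPKM in the libraries labelled 5637 in the same order. These are the highest correlations among all features compared, over libraries that share their cell line, and no p was computed.

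In UM-UC-3, the question was which members differ from sh-NC with both hairpins. LINC01296 was the 1 member at least 2-fold lower with both, at log2 changes of -1.13 and -1.02. That is 0.826% of the members, against 0.391% of the 15104 features. LINC01111 was the 1 member at least 2-fold higher with both, against 0.940% of all features. It lies on chromosome 8 and measured 0.584, 2.83 and 2.80 FPKM under sh-NC, sh-LNMAT1#1 and then sh-LNMAT1#2. Its log2 changes were 1.62 and 1.61. LINC01111 overlaps LINC01109, another member, on the same strand, and reads can be shared between them. In the library labelled 5637 sh-NC LINC01111 was 2.97 FPKM, and it was listed at 0 in both 5637 hairpin libraries. With a pseudocount of 0.1 in place of 0.5, 2 members were lower (1.65% against 0.722% of all features) and 4 higher (3.31% against 1.90%) with both hairpins. With a pseudocount of 1, 0 were lower and 1 higher, so LINC01296 no longer passed 2-fold with both. At a 1.5-fold limit 10 were higher, 8.26% against 3.999%, and 1 was lower, 0.826% against 2.30%. The median log2 change of the members was 0.20 with either hairpin, against 0.01 with sh-LNMAT1#1 and 0.00 with sh-LNMAT1#2 over all features.

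The hairpins differed in how many members moved. With sh-LNMAT1#1, 16 members were at least 2-fold higher than in sh-NC, 13.2% against 5.95% of all features, and 3 were lower, 2.48% against 4.75%. With sh-LNMAT1#2, 4 were higher, 3.31% against 2.04%, and 1 was lower, 0.826% against 1.32%. LINC01260 moved furthest with sh-LNMAT1#1, from 0.156 to 2.04 FPKM, and was 0.307 FPKM with sh-LNMAT1#2. LINC01474 was 0.520, 3.24 and 1.16 FPKM with sh-NC, then sh-LNMAT1#1, then sh-LNMAT1#2, and LINC01602 was 1.48, 6.87 and 2.79 FPKM. The order was the reverse in LINC01109, which overlaps LINC01111 on the same strand and can share reads with it, with 0.171, 0.393 and 2.15 FPKM. These 4 were picked after their values were seen. In the library labelled 5637 sh-NC, LINC01260 was 2.17 FPKM, LINC01474 3.74 FPKM, LINC01602 4.52 FPKM and LINC01109 0.0434 FPKM. LINC01260 and LINC01474 were thus near their level in UM-UC-3 sh-LNMAT1#1, LINC01602 lay between the levels with the 2 hairpins, and LINC01109 was under its level in every UM-UC-3 library.

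**Figure D2:**
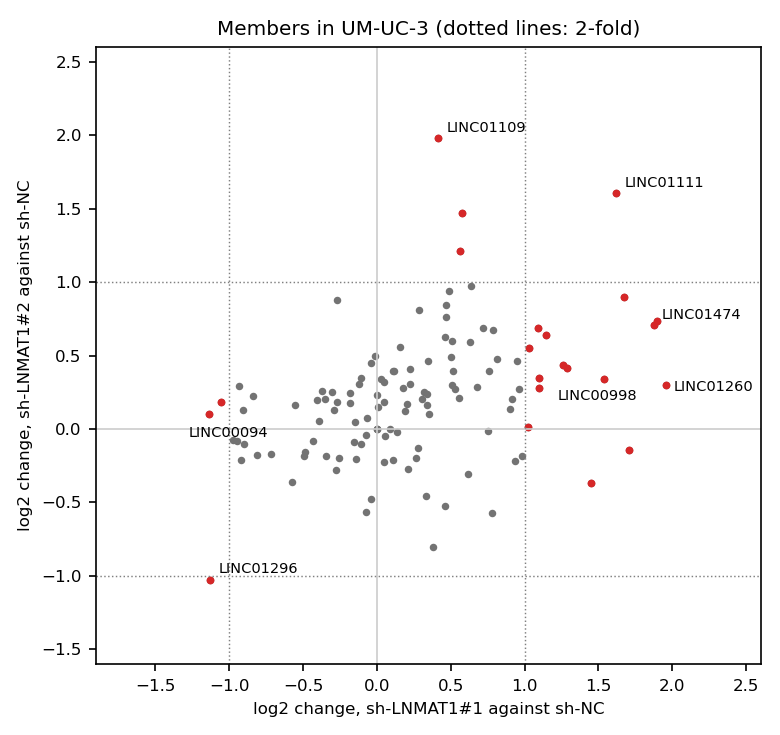
Log2 change of each of 121 members in UM-UC-3 against sh-NC, with sh-LNMAT1#1 on the horizontal and sh-LNMAT1#2 on the vertical axis. Red points passed 2-fold (dotted lines) with at least 1 hairpin. LINC01296 is in the lower left corner and LINC01111 in the upper right, while 16 members lie to the right of the 2-fold line of sh-LNMAT1#1.

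Some members encode small proteins. The list held 8 LINC symbols known for a microprotein and every member annotated as coding, 10 in all, of which 9 had a row and 6 were members. In UM-UC-3, 3 of the 6 (LINC00998, LINC01420 and LINC00493) were at least 2-fold higher with sh-LNMAT1#1, against 5.95% of all features. With that hairpin 1 was lower (LINC00094), against 4.75%. With both hairpins 0 passed 2-fold, against 0.940% higher and 0.391% lower. LINC00998 encodes SMIM30, a small membrane protein, and measured 8.51, 25.7 and 10.9 FPKM in UM-UC-3 with sh-NC, then sh-LNMAT1#1, then sh-LNMAT1#2. The library labelled 5637 sh-NC had 22.8 FPKM, and the 5637 hairpin libraries 10.9 and 11.3 FPKM. LINC01420 encodes NBDY, which binds the mRNA decapping complex of P-bodies, and measured 5.67, 14.5 and 7.74 FPKM in UM-UC-3, then 18.7 FPKM for the library labelled 5637 sh-NC, and 12.6 and 12.2 FPKM in 5637 with the hairpins. LINC00493, which encodes the mitochondrial protein SMIM26, measured 20.1, 43.7, 24.5, 36.6, 11.2 and 15.0 FPKM in the same order. In all 3, UM-UC-3 sh-LNMAT1#1 and the library labelled 5637 sh-NC had the 2 highest values.

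Other coding members did not share that pattern. LINC00116 encodes mitoregulin, a protein of the inner mitochondrial membrane, and measured 5.17, 5.92, 6.37, 7.34, 2.42 and 2.91 FPKM. LINC00094, annotated as BRD3OS opposite BRD3, went the other way with 1.78, 0.537, 1.95, 0.540, 3.56 and 2.31 FPKM, lowest in the pair of libraries where LINC00998 was highest. LINC00672, now LASP1NB, measured 0.0342, 0.0380, 0.0921, 0, 0.854 and 1.27 FPKM. Between the lines, 1 of these 6 members was called higher in 5637, LINC00672, and 2 lower, LINC00493 and LINC00116, where 20.4% of all features were called higher and 18.5% lower. LINC00961, LINC00862 and LINC00675 have rows that stayed under the limit.

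MALAT1 and NEAT1, long RNAs that stay in the nucleus, are not members and are given for comparison. MALAT1 measured 8.88, 21.0 and 9.41 FPKM in UM-UC-3 with sh-NC, then sh-LNMAT1#1, then sh-LNMAT1#2, then 14.8 FPKM for the library labelled 5637 sh-NC, and 14.3 and 13.8 FPKM in 5637 with the hairpins. NEAT1 measured 25.6, 75.7, 51.9, 67.0, 11.0 and 7.77 FPKM. In UM-UC-3 each was highest with sh-LNMAT1#1, as LINC00998 and LINC01420 were.

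**Figure D3:**
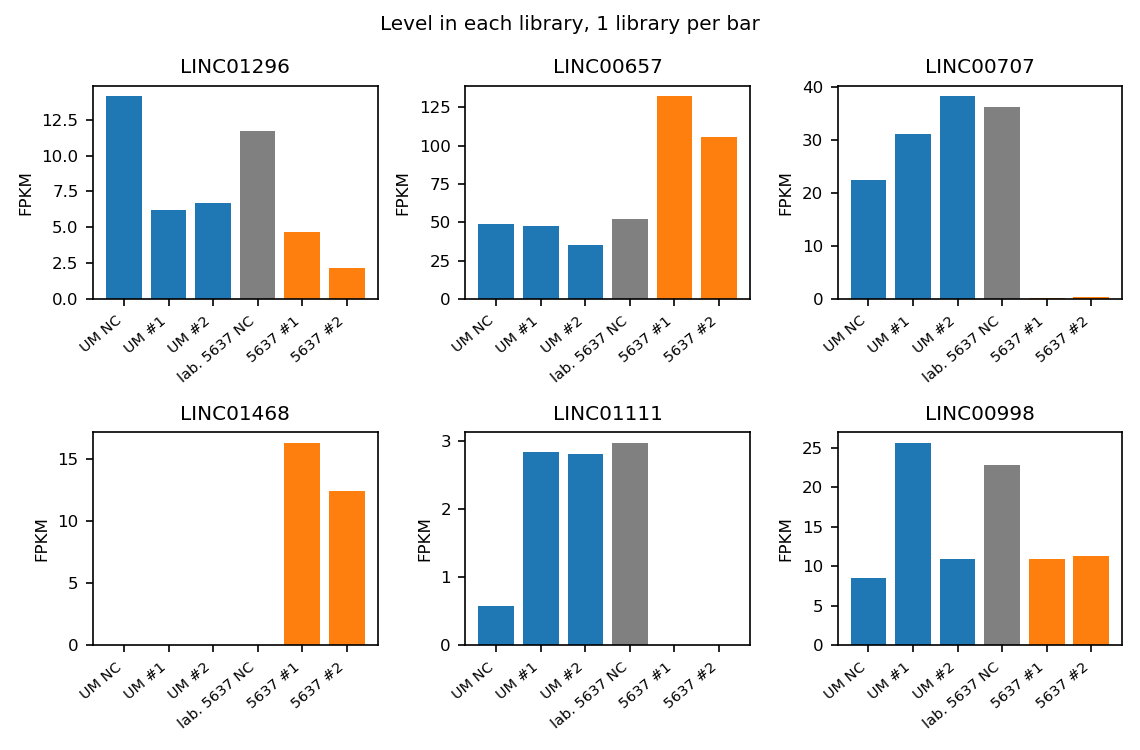
FPKM of 6 members in each library, 1 library per bar, with UM-UC-3 in blue, the library labelled 5637 sh-NC in grey and the 5637 hairpin libraries in orange. UM and 5637 mark the line, NC the control hairpin, #1 and #2 the hairpins, and lab. the library labelled 5637 sh-NC. The vertical axes start at 0 and differ between panels. LINC01296 is highest in both sh-NC libraries, LINC00707 and LINC01468 separate the 5637 hairpin libraries from the rest, and LINC00998 is highest in UM-UC-3 sh-LNMAT1#1 and the library labelled 5637 sh-NC.

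Against the library labelled 5637 sh-NC, far more members differed. At least 2-fold lower with both hairpins were 49 of 121, 40.5%, against 14.6% of all features, and 18 were higher, 14.9% against 17.5%. Furthest below that library, ranked by the smaller change, were LINC00707, LINC01139, LINC00317 and LINC01029, at log2 changes of -5.87 and -5.39, -5.27 and -5.35, -4.77 and -4.77, and -4.76 and -4.98 with sh-LNMAT1#1 and #2. Furthest above it were LINC01468, LINC01503, LINC00511 and LINC01411, at 5.07 and 4.69, 4.65 and 4.67, 3.82 and 3.98, and 3.70 and 3.92. With UM-UC-3 sh-NC as the control in place of that library, 40 members were lower (33.1% against 12.5% of all features) and 19 higher (15.7% against 16.1%). The changes with sh-LNMAT1#1 and #2 were then -5.19 and -4.71 for LINC00707, -4.51 and -4.60 for LINC01139, -4.59 and -4.59 for LINC00317, and -4.57 and -4.79 for LINC01029. They were 5.07 and 4.69 for LINC01468, 4.43 and 4.45 for LINC01503, 3.69 and 3.86 for LINC00511, and 3.65 and 3.88 for LINC01411. The difference between constructs and that between cell lines cannot be told apart in this comparison. The choice of members also shapes these counts. Of the members 41.3% reached 1 FPKM in the hairpin libraries of UM-UC-3 only, against 12.4% of all features. The library labelled 5637 sh-NC is like those libraries, so no support is drawn from the counts.

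The 5637 hairpin libraries differed little from each other. With sh-LNMAT1#2, 3 members were at least 2-fold higher than with sh-LNMAT1#1, 2.48% against 1.35% of all features, and 0 were lower, against 0.973%. LINC01290 was 0.0957 FPKM under sh-LNMAT1#1, 3.50 FPKM under sh-LNMAT1#2 and at most 0.0868 FPKM in the other libraries. LINC00622 was 0.980 and 2.73 FPKM, and LINC00174 was 0.312 and 1.28 FPKM. These 3 were named after their values were seen, and each difference rests on single libraries.

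The lines were compared in the 4 hairpin libraries, which leave out both sh-NC libraries. limma over the 15104 features, with 2 libraries a line and 2 residual degrees of freedom, called 51 members lower and 19 higher in 5637 than in UM-UC-3. These are 42.1% and 15.7% of the members, against 18.5% and 20.4% of all features. The p-values measure only the spread between the hairpin libraries of a line, which also carry different hairpins. In bulk RNA, a lower level in each cell and fewer cells with the RNA cannot be told apart. Without 5637 sh-LNMAT1#1 the counts were 15 lower (12.4% against 1.72% of all features) and 11 higher (9.09% against 7.20%). Without 5637 sh-LNMAT1#2 they were 13 (10.7% against 1.62%) and 9 (7.44% against 7.32%). With all 6 libraries taken by their labels, limma called 0 members in either direction. At an unadjusted p under 0.05 from limma, 6 were higher (4.96% against 7.53% of all features) and 25 lower (20.7% against 6.71%).

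How the members were chosen bears on these counts. Of the 121, 50 reached 1 FPKM in the hairpin libraries of UM-UC-3 only, 18 in those of 5637 only, 47 in both lines and 6 in a sh-NC library only. Over all features the shares were 12.4%, 13.4%, 72.5% and 1.67%, against 41.3%, 14.9%, 38.8% and 4.96% of the members. A member that passed the limit through 1 line alone had to differ, so no support is drawn from the count. Among the 47 members at 1 FPKM or more in both lines, 15 were lower in 5637, 31.9% against 15.4% of such features, and 5 higher, 10.6% against 14.1%. The values of the hairpin libraries of the lines did not overlap in 100 members, 82.6%, against 73.0% of all features. In 22 of the 70 called members both lower libraries were at or under 3 fragments by all exons, and in 14 they were listed at 0, so that the log2 difference depends on the pseudocount.

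Of the members lower in 5637, LINC00707 led. It lies on chromosome 10 from 6779598 to 6842906 and measured 22.3, 31.1 and 38.2 FPKM in UM-UC-3 with sh-NC, then sh-LNMAT1#1, then sh-LNMAT1#2, then 36.1 FPKM for the library labelled 5637 sh-NC, and 0.125 and 0.370 FPKM in the 5637 hairpin libraries. The log2 difference was -5.57 (SE 0.25, adjusted p = 2.95e-04 by limma). LINC01139, also named LINK-A and known for binding kinases and lipids at the membrane, measured 11.6, 18.3, 17.8, 19.9, 0.0313 and 0 FPKM in the same order, a difference of -5.17 (SE 0.19). LINC00317 on chromosome 21 measured 11.5, 9.46, 21.6 and 13.1 FPKM and was listed at 0 in both 5637 hairpin libraries, and its difference was -4.89 (SE 0.40). LINC01029 on chromosome 18 followed with 13.7, 13.4, 18.9, 15.7, 0.0994 and 0.0133 FPKM and -4.89 (SE 0.25). In each of these the library labelled 5637 sh-NC lay within the range of the UM-UC-3 libraries or close above it.

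LINC00958 and LINC01021 completed the 6. LINC00958, also called BLACAT2 for its description in bladder cancer, measured 7.76, 11.2, 11.1, 9.27, 0.0483 and 0.112 FPKM, a log2 difference of -4.33 (SE 0.20). LINC01021 is PURPL, an RNA induced by p53 that restrains p53, and measured 5.25, 11.8, 8.77, 8.09, 0.0563 and 0.0151 FPKM, a difference of -4.32 (SE 0.23). The adjusted p of these 6 by limma was between 2.69e-04 and 0.00120. For all 6, the lowest UM-UC-3 library was above both 5637 hairpin libraries.

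Of the members higher in 5637, LINC01468 led. Now named LNCAROD after its neighbour DKK1, a secreted Wnt inhibitor, it measured 0, 0.0325 and 0 FPKM in UM-UC-3, 0 in the library labelled 5637 sh-NC, and 16.3 and 12.4 FPKM in the 5637 hairpin libraries. The log2 difference was 4.83 (SE 0.22, adjusted p = 3.04e-04 by limma). LINC01503, described in squamous carcinomas as a target of TP63, measured 0.105, 0, 0, 0.0193, 12.5 and 12.7 FPKM, a difference of 4.71 (SE 0.19). LINC00511 measured 0.119, 0.0870, 0.103, 0.0676, 7.52 and 8.47 FPKM, and LINC01411 measured 0.0266, 0.0787, 0.0191, 0.00976, 6.13 and 7.23 FPKM, with differences of 3.83 (SE 0.20) and 3.71 (SE 0.21). LINC00525 and LINC00865 were listed at 0 in the 4 other libraries and measured 2.19 and 2.65 FPKM, and 2.40 and 2.22 FPKM, in 5637 with sh-LNMAT1#1 and #2. The adjusted p of these 6 by limma was between 2.69e-04 and 0.00144. In the library labelled 5637 sh-NC none of the 6 exceeded 0.0676 FPKM.

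LINC01296 itself was not among the members called between the lines. Its log2 difference in the hairpin libraries was -0.91 (SE 0.36), with an adjusted p of 0.1005 from limma, and the 5637 values of 4.70 and 2.14 FPKM lay under the UM-UC-3 values of 6.20 and 6.70 FPKM.

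Of 21 LINC genes studied in carcinomas, 19 had a row under that symbol and 16 were members. Between the lines 8 were called lower in 5637, 3 higher and 5 not called. The shares called lower and higher were 42.1% and 15.7% over all members, and 18.5% and 20.4% over all features. The list had a median log2 difference of -0.87 against -0.79 over all members and -0.03 over all features. LINC00152, the cytoskeleton regulator CYTOR, measured 6.27, 4.61 and 7.26 FPKM in UM-UC-3, then 4.78 FPKM for the library labelled 5637 sh-NC, and 1.19 and 1.08 FPKM in 5637 with the hairpins. LINC01234 measured 1.62, 3.16, 2.88, 3.57, 0.340 and 0.301 FPKM, and LINC01116 measured 3.46, 3.78, 2.92, 3.15, 1.72 and 1.15 FPKM. Both were called lower in 5637. LINC00857, LINC00641, LINC00467, LINC00346 and LINC00704 were not called, and of these LINC00641 was 3.20, 6.42, 3.58, 6.88, 4.88 and 5.44 FPKM. With both hairpins in UM-UC-3, 0 of the 16 passed 2-fold in either direction, where 0.391% of all features were lower and 0.940% higher.

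Promoters are shown for members named between the lines, which were picked for their difference, 4 of them higher in 5637 (LINC01468, LINC00511, LINC01411 and LINC00865) and 1 lower (LINC01021). RefSeq promoters, 250 bases before to 50 after the start of a gene, were matched for 79 of 121 members, 65.3%, so a summary of base composition over the members is void, and single promoters are described. Each motif was searched on both strands, and none contains another. Of the 35116 promoters in the table, 11.5% hold TATAAA, 45.0% hold GGGCGG, 34.6% hold CCAAT and 7.71% hold TGANTCA. Of the 12 members named between the lines, 5 had a promoter. Matches are in capitals, each is given 5′ to 3′ on the gene's strand, and the build is GRCh38.p14.
LINC01468, chr10:52470484-52470783, minus strand: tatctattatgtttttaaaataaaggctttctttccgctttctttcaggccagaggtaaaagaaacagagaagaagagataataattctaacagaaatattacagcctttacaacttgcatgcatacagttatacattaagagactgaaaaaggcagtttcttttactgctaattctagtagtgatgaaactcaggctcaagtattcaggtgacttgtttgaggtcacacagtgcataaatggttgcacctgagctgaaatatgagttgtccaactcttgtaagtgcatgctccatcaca
LINC00511, chr17:72640423-72640722, minus strand: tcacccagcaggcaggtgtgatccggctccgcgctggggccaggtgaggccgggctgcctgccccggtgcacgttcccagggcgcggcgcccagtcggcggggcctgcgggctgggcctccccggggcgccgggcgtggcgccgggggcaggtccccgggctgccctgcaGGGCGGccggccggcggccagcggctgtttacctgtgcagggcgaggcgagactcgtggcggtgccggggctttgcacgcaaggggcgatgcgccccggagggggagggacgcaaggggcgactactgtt
LINC01411, chr5:174336104-174336403, plus strand: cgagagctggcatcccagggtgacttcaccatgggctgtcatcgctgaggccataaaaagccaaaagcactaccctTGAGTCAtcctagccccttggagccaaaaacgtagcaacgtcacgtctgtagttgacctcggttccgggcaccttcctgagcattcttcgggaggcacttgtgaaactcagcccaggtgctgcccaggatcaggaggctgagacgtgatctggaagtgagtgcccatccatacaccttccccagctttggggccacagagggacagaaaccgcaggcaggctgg
LINC00865, chr10:89829243-89829542, plus strand: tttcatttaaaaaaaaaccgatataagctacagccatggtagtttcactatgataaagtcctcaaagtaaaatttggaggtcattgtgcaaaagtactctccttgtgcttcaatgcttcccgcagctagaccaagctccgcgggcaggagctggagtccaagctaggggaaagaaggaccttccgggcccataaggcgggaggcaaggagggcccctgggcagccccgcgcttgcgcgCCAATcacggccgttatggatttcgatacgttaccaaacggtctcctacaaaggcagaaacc
LINC01021, chr5:27472042-27472341, plus strand: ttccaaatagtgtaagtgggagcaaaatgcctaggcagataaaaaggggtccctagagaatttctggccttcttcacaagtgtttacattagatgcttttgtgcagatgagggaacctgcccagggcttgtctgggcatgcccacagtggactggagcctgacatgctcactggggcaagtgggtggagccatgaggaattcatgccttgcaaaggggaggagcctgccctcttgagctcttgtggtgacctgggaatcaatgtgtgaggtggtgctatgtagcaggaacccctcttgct
The promoter of LINC00511 has a GC content of 78.0% and 1 match to GGGCGG, that of LINC01411 has 57.3% and 1 match to TGANTCA, and that of LINC00865 has 51.3% and 1 match to CCAAT. The promoters of LINC01468, at 36.0%, and LINC01021, at 52.0%, hold no match to the 4 motifs. In the 300 bases of LINC01021 the dinucleotide CG does not occur, and its ratio of observed to expected CG is 0, against 0.786 in LINC00511 and a median of 0.579 over all promoters. The 4 promoters of members higher in 5637 thus differ in composition, and a match is only a description of the letters.

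Some members lie next to each other. Within 100 kb of one another there were 12 pairs of members, of which 10 (83.3%) had differences of the same sign between the lines, against 57.2% of all 7260 pairs of members. Of the 12 pairs, 7 overlap, all with the same sign, and 3 pairs are made of LINC01547, LINC00165 and LINC00162. In 6 pairs both members were called, in the same direction in each, and no test was made. Of the 70 called members 51 were lower in 5637, so pairs of called members would often share a direction at any distance. LINC00706 and LINC00707, 418 bases apart on chromosome 10, differed by -3.29 and -5.57 on the log2 scale. LINC00706 measured 1.51, 5.91, 3.24, 7.14, 0 and 0 FPKM. LINC01443 and LINC01444 overlap on chromosome 18 and differed by -1.80 and -4.26, and LINC01270 and LINC01271 on chromosome 20 by -3.29 and -2.03. Overlapping members can share reads, so the members of such a pair are not independent. LINC00162 was lower in 5637 at -1.63, whereas LINC00165, 4023 bases away on chromosome 21, differed by 0.03 and was not called.

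For 82 members the nearest coding gene was also at 1 FPKM or more. Of these pairs, 59, or 72.0%, differed in the same direction between the lines, against 62.2% of 8093 pairs of a coding gene and its nearest coding gene. Within 100 kb the numbers were 43 of 60, 71.7%, against 62.4%. No test of this difference was made. Of 45 called members with such a neighbour, the neighbour was called the same way in 15 (33.3%), the other way in 3 (6.67%) and not called in 27. Of 3118 called coding genes, the nearest coding gene was called the same way in 32.8% and the other way in 10.1%, so the members' share called the same way is near that of coding genes.

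The pairs below were picked after their values were seen. LINC01137 begins 141 bases from ZC3H12A, which encodes the ribonuclease regnase-1, and is now named as its divergent transcript. LINC01137 measured 1.36, 1.06, 1.12, 0.863, 4.55 and 4.11 FPKM, and ZC3H12A measured 2.14, 2.19, 3.81, 2.72, 55.1 and 77.7 FPKM. Both were highest in the 5637 hairpin libraries. LINC01474 lies 26553 bases from ALDH1A1, a retinal dehydrogenase, which measured 3.33, 14.9, 6.63, 21.6, 0 and 0.0142 FPKM. LINC01474 itself, given above, had the same order of libraries among the UM-UC-3 libraries and the library labelled 5637 sh-NC. LINC00317 lies 179964 bases from the cell adhesion gene NCAM2, at 1.78, 3.18, 3.42, 3.25, 0.0131 and 0.00470 FPKM.

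Of the 3 pairs called in opposite directions, LINC01537 was higher in 5637 by 1.08 on the log2 scale, whereas PDE2A, a phosphodiesterase gene 2912 bases away, differed by -1.81. LINC01311 with SLC25A1 and LINC00431 with ANKRD10 were the others. DKK1, 132832 bases from LINC01468, measured 2.55, 1.03 and 8.23 FPKM in UM-UC-3, then 1.68 FPKM for the library labelled 5637 sh-NC, and 14.1 and 14.1 FPKM in 5637 with the hairpins. DKK1 differed in the direction of LINC01468, with a log2 difference of 2.00, but was not called between the lines (adjusted p = 0.106 by limma).

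The nuclear exosome and the factors that guide it degrade many noncoding RNAs soon after transcription, so its genes were listed beside the members. Of 20 symbols, 19 had a row and all 19 reached 1 FPKM. Between the lines limma called 3 lower in 5637, the core subunit genes EXOSC1, EXOSC5 and EXOSC8, and 0 higher (also 0 at an unadjusted p under 0.05). All features were called lower in 18.5% and higher in 20.4%. The list had a median log2 difference of -0.32 against -0.03 over all features, and with both hairpins in UM-UC-3 0 of its genes passed 2-fold, where 0.391% of all features were lower and 0.940% higher. The part of these genes in the levels of the members was not tested.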

How the data were processed

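RNA-seq values came as FPKM that the authors deposited, 1 column for each of 6 libraries, after alignment with HISAT2 on hg38, and the counting program, annotation and gene lengths are not stated. The labels name a stranded mRNA kit. Of 50869 rows, 2 pieces of 1 broken row were left out. Depth was worked out from single-exon genes, whose values are whole multiples of 1 fragment, and covers counting error only.

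Levels were compared as log2(FPKM + 0.5). Between single libraries a feature counted as called past 2-fold, with no test. The pooled knockdown comparison (hairpins against sh-NC, adjusted for line) and the comparison of the lines in the sh-LNMAT1 libraries were fitted with limma 3.58.1 with a trend in R 4.3.3. The fits took in the 15104 features with a highest value of at least 1 FPKM, with adjusted p-values over all of them, and the fits were tested on simulated data. Tables and plots were made with Python 3.11.15, numpy 2.4.6, pandas 2.3.3 and matplotlib 3.10.9. Positions and gene types came from GENCODE release 29, and promoters from RefSeq.

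Named were LINC01296, the 6 members with the highest mean, the members next to the limit, up to 5 a direction past 2-fold with both hairpins in UM-UC-3, up to 4 a direction against the library labelled 5637 sh-NC, and up to 6 a direction between the lines. Members of the lists of microproteins and of genes studied in carcinomas, and the 3 features most like LINC01296, were named too. Other named genes were chosen after their values were seen. The members and lists were chosen with earlier results of these data known. Alternatives were the pseudocount, scaling to the 75th percentile, the fold limit, the filter on low values, the limma trend, the covariate, the control library and leaving out each library in turn.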

Additional observations from a re-analysis of the deposited data

Results flagged for a closer look

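For some genes named above, both hairpins went one way in UM-UC-3 and the opposite way in 5637, at any size. The mean log2 change in 5637 minus that in UM-UC-3 is given for each, and the difference was not tested. Every 5637 change rests on the library labelled 5637 sh-NC unless another control is named. Opposite signs were found in 52 of the 121 members, 43.0%, and in 35.5% of all features, against that library. With UM-UC-3 sh-NC in its place they were found in 47 members, 38.8%, and in 23.3% of all features. The lines then share their control, and the share to be found without any change was not worked out. UM-UC-3 sh-NC was tried as the control for the genes below after seeing the data. For LINC00998, LINC01420, LINC00641, LINC01547 and MALAT1 the 5637 changes then went the same way as in UM-UC-3. With sh-LNMAT1#1, then sh-LNMAT1#2, LINC00998 was 0.34 and 0.39 higher in 5637 on the log2 scale (1.54 and 0.34 in UM-UC-3). LINC01420 was 1.09 and 1.04 higher (1.29 and 0.42), and LINC00641 0.54 and 0.68 higher (0.90 and 0.14). MALAT1 was 0.65 and 0.61 higher (1.20 and 0.08), and LINC01547 changed by -0.20 and -0.21 (-0.95 and -0.08). The flags of these 5 thus depend on the library whose label is in doubt. The other flagged genes kept opposite signs. With that control a 5637 change also holds the difference between the lines, so nothing is drawn from the kept signs. In brackets below is the difference with UM-UC-3 sh-NC as the control of both lines. It equals the difference between the lines in the hairpin libraries.

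The change in 5637 was the lower for most of these members. The difference was -6.25 (-5.57) for LINC00707, -5.92 (-5.17) for LINC01139 and -5.22 (-3.29) for LINC00706. It was -4.89 (-4.32) for LINC01021, -4.57 (-4.33) for LINC00958 and -4.41 (-2.73) for LINC01111. It was -4.31 (-2.25) for LINC01474, -4.16 (-3.29) for LINC01270 and -4.11 (-3.68) for LINC00460. For LINC01602 it was -3.69 (-2.34), for LINC01260 -3.41 (-1.39) and for LINC01234 -3.04 (-2.10). For 1 row of LINC01481 it was -2.67 (-1.54), for LINC01271 -2.58 (-2.03) and for LINC00493 -2.15 (-1.31). For LINC00998 it was -1.95 (-0.57), for LINC00116 -1.54 (-1.07) and for LINC01420 -1.42 (0.21). The smallest against the library labelled 5637 sh-NC were -1.37 (-1.80) for LINC01443, -1.36 (-1.04) for LINC01311, -1.32 (-1.62) for LINC01109 and -0.90 (0.09) for LINC00641.

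The change in 5637 was the higher for LINC01503, with a difference of 4.94 (4.71), and LINC00511, with 3.96 (3.83). It was also the higher for LINC01137, with 2.05 (1.60), LINC00657, with 1.43 (1.52), and LINC01547, with 1.06 (0.31). Among genes that are not members, the difference was -6.90 (-4.37) for ALDH1A1, -5.15 (-1.97) for 1 row of DUXAP8 and -4.06 (-2.69) for NEAT1. It was -3.62 (-2.90) for NCAM2, -2.41 (-1.81) for PDE2A, -1.71 (-1.17) for EXOSC5, -1.21 (-1.03) for EXOSC1 and -0.71 (-0.01) for MALAT1. For KRT19 it was 9.37 (9.27), for COL1A1 4.11 (3.47) and for SLC25A1 1.61 (1.30).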

How the results depend on the processing

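Each library is the only one of its construct and line, so the counts past 2-fold carry no measure of spread, and the cause of the changes below was not tested. In UM-UC-3, the 1 member lower with both hairpins became 2 with a pseudocount of 0.1, 0 with a pseudocount of 1, 0 at 5-fold and 3 with sh-LNMAT1#1 alone. The 1 member higher became 4 with a pseudocount of 0.1, 10 at 1.5-fold, 0 at 5-fold, 0 with a highest value of at least 5 FPKM, 16 when hairpin sh-LNMAT1#1 was used alone and 4 for sh-LNMAT1#2. In 5637, the 49 lower members became 20 at 5-fold (16.5% against 2.73% of all features) and 26 of the 38 left at 5 FPKM or more (68.4% against 15.3%). The 18 higher members became 6 (4.96% against 4.98%) and 5 of 38 (13.2% against 17.9%). The choice of members by their highest value bears on these 5637 counts too, and no support is drawn from them.

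In the pooled comparison by limma, leaving out each library in turn gave 0 to 62 members, where 62 is the count without UM-UC-3 sh-NC (32.0% of all features were called there), and a log2 change of LINC01296 from -1.72 to -1.08. Between the lines, the 19 higher members became 5 of the 38 at 5 FPKM or more (20.4% of all features there), 8 with no filter (3.39%), 0 with all 6 libraries by label (6 at an unadjusted p under 0.05, 7.53%), and 9 to 17 on leaving out each library in turn. The 51 lower members became 25 of the 38 (20.9% of all features), 20 with no filter (2.45%), 0 by label (25 unadjusted, 6.71%) and 13 to 54. The filters also change which features are tested. A lone library left in a line is assumed to vary like the other line, and a lone control like the hairpin libraries. Of the 59 members that differed in the same direction as a coding neighbour, 15 were left at 5 FPKM or more, with fewer pairs compared. The other alternatives gave counts within 1.5 times the reported ones. Scaling to the 75th percentile shifted each library by less than 0.1 on the log2 scale.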
